A study of Mus musculus with 6 samples.

Results

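The collagen chain genes encode the polypeptides that wind in threes into the triple helices of collagen. They were chosen by name, as every gene with 1 annotated symbol made of Col, a number, the letter a and a number. This gave 44 of the 22180 genes measured. The naming rule uses no expression value, but the set was chosen with earlier results of these data known. RNA came from primary fibroblasts of adult mouse lungs, of mixed strain, that had been passaged no more than 3 times. The 3 wells given 1 µg/ml 4-hydroxytamoxifen (4OHT) and the 3 wells given vehicle were harvested after 48 h and put on 1 array each. Every well, vehicle wells included, held cells of 1 genotype label, UBCCreERT/RSmoM2. In these cells a Cre recombinase under a ubiquitin C promoter is switched on by 4OHT and in turn switches on SmoM2, a constitutively active Smoothened that drives hedgehog signalling. No array came from cells without the allele, so the drug and the activated allele cannot be told apart. The protocol splits freshly isolated cells into wells and names no separate animals for them. The p-values therefore cover the variation among these wells alone, and that variation may be technical.

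Collagen chains fold in the endoplasmic reticulum into trimers of 1, 2 or 3 kinds of chain, are trimmed after secretion and are then built into fibres, sheets or filaments. Fibrillar collagens give tissue its tensile strength. Network collagens form basement membranes (type IV) or hexagonal lattices (types VIII and X), and FACIT collagens, the fibril-associated collagens with interrupted triple helices, decorate fibrils. Type VI forms beaded filaments around cells, and transmembrane collagens stay anchored in the plasma membrane. Lung fibroblasts are a main source of the interstitial collagens of the lung and also deposit type IV and type VI chains.

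The arrays were alike, with a median log2 expression between 7.44 and 7.47 and a Pearson's r across genes of 0.995 to 0.998 for any 2 arrays. Gli1, the usual readout of hedgehog signalling, measured 6.74, 6.76 and 6.94 in 4OHT wells, against 6.47, 6.49 and 6.43 in vehicle wells on the log2 scale, and the groups did not overlap. The vehicle values lay close to 6.47, the 95th percentile of olfactory and vomeronasal receptor genes, and fold changes of so dim a gene may be compressed. Gli1 rose by 0.35 (adjusted p = 0.0167 by limma). That call was lost without vehicle replicate 1 (0.0538), 2 (0.0541) or 3 (0.0543), and with the replicate number as a block (0.0560). Smo, the gene of which SmoM2 is an active form, measured 11.61, 11.61 and 11.60 in 4OHT wells, against 11.69, 11.67 and 11.75 in vehicle wells, and these groups did not overlap either. It was not called (log2 fold change -0.10, adjusted p = 0.204). All 9 fibroblast markers examined, among them Pdgfra, Thy1 and the collagen-binding proteoglycan gene Dcn, were brighter than nearly all olfactory and vomeronasal receptor genes, and none was called. Without overlap of the groups, 3 of the 9 were lower and 2 higher by value. The largest log2 fold changes were those of Lum (-0.27, adjusted p = 0.0849 by limma), Fbln1 (0.23, 0.0660) and Tcf21 (-0.19, 0.0555). Levels below are RMA log2 expression, and a gene was called where limma's adjusted p over all genes was under 0.05. Precision throughout is limited by the number of arrays. In a culture of many cells, fewer cells of a type and less RNA per cell cannot be told apart.

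Most collagen genes that changed were lower in 4OHT wells, and nearly all by less than 2-fold. Of the 44 collagen chain genes, 13 fell, 1 rose and 30 were not called. Among all genes 12.0% were called, 6.62% lower and 5.38% higher, whereas 29.5% of the collagen genes were lower and 2.27% higher. A fold change below 0 was found for 36 of the 44, against 51.4% of all genes, and the median log2 fold change was -0.09 over the collagen genes and -0.01 over all genes. The 3 values of 4OHT wells lay wholly below those of vehicle wells for 23 collagen genes and wholly above for 2, where the shares among all genes were 17.8% and 15.0%. The falls ran from 0.26 (Col11a1) to 1.68 (Col10a1) on the log2 scale with a median of 0.34. Of the 13, 3 (Col10a1, Col8a2 and Col15a1) fell by more than 1.5-fold and only Col10a1 by more than 2-fold. Without Col10a1, 12 of 43 were lower.

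**Figure D1:**
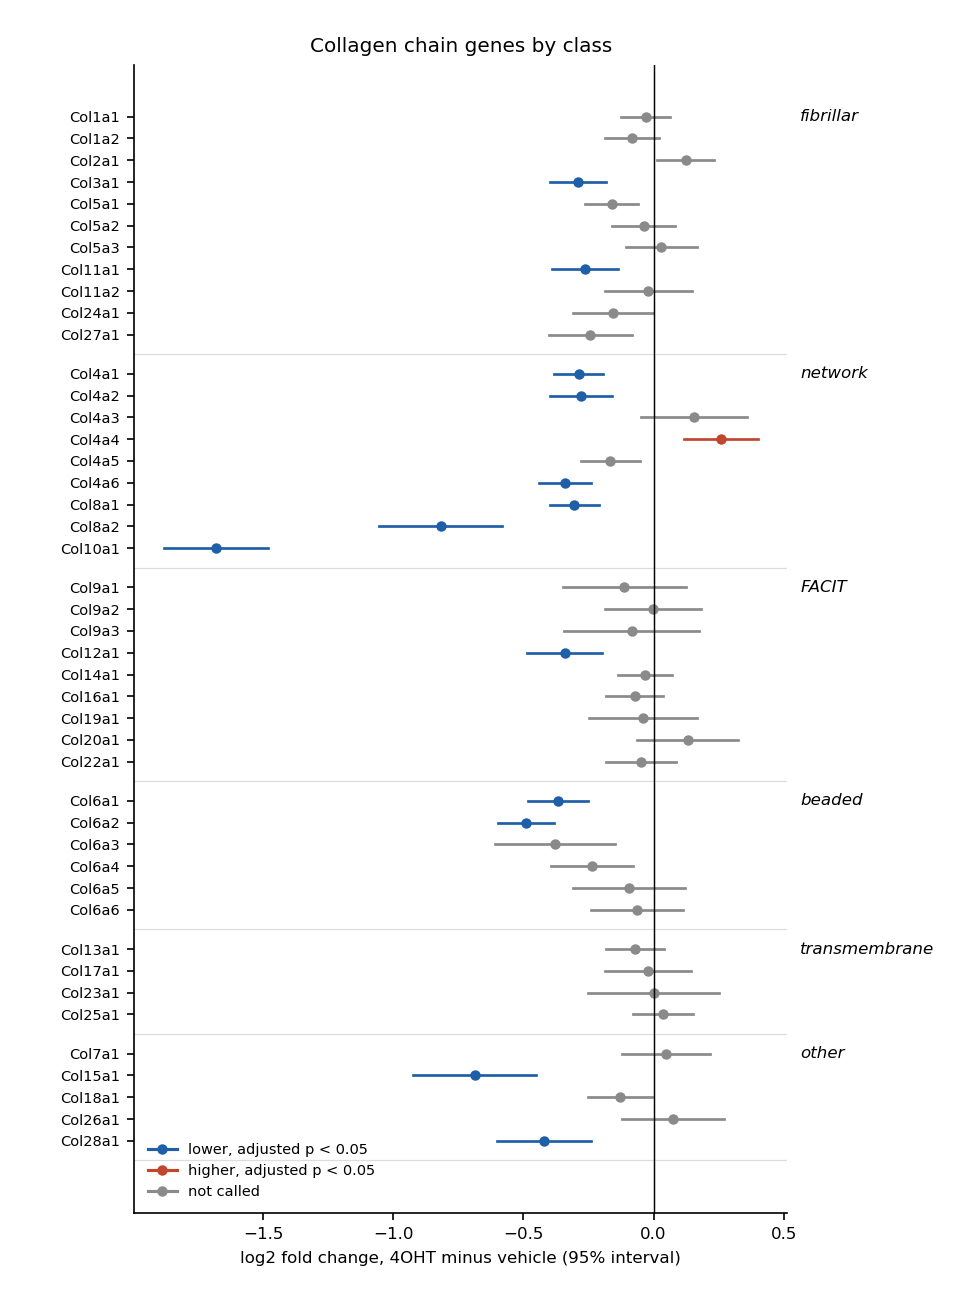
Log2 fold change (4OHT minus vehicle) of all 44 collagen chain genes with its 95% interval, in rows grouped by class. Blue marks the 13 genes called lower, red the 1 called higher (Col4a4) and grey the 30 not called; Col10a1 stands farthest to the left at -1.68, and the 4 transmembrane genes sit at 0 within their intervals.

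Of the 13 lower genes, 8 were network or beaded collagens. 6 of 9 network genes were lower and 1 was higher, with a median log2 fold change of -0.29. Of the 6 beaded genes 2 were lower, with a median of -0.30, and all 6 had a fold change below 0. 2 of 11 fibrillar genes were lower (median -0.08), as was 1 of 9 FACIT genes (median -0.05) and none of 4 transmembrane genes (median -0.01). Of the 5 remaining genes (Col7a1, Col15a1, Col18a1, Col26a1 and Col28a1), 2 were lower, with a median of -0.13. Among all genes 6.62% were lower, and counts of 1 of 9 or none of 4 cannot be told apart from that share. The 4OHT values lay wholly below the vehicle values for 7 of 9 network, 7 of 11 fibrillar and 4 of 6 beaded genes. They did so for 1 of 9 FACIT and 1 of 4 transmembrane genes, where the share among all genes was 17.8%. No test between classes was made.

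Promoters are shown for 6 of these genes, without Col4a4, the only one called higher. They are those of the 3 largest falls, the 2 called chains of type VI, and Col1a2, a chain that was not called. Each is the 250 bases before the annotated start in RefSeq's GRCm38.p6, written along the gene's strand. They lie at chr10:34389731-34389980 (plus strand, Col10a1), chr4:126286544-126286793 (plus, Col8a2), chr4:47207762-47208011 (plus, Col15a1), chr10:76623631-76623880 (minus, Col6a2, the outer of 2 starts), chr10:76726045-76726294 (minus, Col6a1) and chr6:4505368-4505617 (plus, Col1a2). Capitals mark TATAAA (the TATA box), CCAAT (the CCAAT box) and GGGCGG (the GC box) on either strand, and GC boxes that overlap each other run together.
Col10a1: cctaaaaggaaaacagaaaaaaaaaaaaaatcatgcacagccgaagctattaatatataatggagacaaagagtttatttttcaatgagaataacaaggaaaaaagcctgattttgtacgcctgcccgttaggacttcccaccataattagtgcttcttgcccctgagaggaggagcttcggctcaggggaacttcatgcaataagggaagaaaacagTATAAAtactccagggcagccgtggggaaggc
Col8a2: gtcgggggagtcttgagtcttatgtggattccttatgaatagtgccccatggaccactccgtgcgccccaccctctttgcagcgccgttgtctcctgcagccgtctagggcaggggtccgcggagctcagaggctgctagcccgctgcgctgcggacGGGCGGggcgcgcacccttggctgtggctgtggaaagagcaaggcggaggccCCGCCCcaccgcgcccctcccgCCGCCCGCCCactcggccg
Col15a1: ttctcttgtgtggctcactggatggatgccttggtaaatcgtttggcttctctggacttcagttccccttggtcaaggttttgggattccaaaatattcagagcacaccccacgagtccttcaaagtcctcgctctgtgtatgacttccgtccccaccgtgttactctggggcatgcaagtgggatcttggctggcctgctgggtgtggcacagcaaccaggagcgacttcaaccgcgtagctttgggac
Col6a2: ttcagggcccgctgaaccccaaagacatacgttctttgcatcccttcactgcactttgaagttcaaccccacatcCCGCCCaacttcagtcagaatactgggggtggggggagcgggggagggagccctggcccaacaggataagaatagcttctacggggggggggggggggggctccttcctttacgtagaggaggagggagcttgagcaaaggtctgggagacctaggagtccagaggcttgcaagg
Col6a1: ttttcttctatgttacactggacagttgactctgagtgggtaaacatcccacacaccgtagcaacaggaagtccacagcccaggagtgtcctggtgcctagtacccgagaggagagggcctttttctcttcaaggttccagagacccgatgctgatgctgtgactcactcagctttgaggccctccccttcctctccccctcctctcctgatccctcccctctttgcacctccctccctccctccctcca
Col1a2: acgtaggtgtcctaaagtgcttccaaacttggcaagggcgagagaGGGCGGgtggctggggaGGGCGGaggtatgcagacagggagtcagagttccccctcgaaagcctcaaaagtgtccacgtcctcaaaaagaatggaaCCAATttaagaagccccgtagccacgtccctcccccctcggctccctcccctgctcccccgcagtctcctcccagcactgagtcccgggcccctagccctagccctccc
The Col10a1 window holds a TATA box near its end and has a GC content of 41.6%. The Col8a2 window holds GC boxes and has a GC content of 70.0%. The Col6a2 and Col1a2 windows shown also hold GC boxes, that of Col1a2 a CCAAT box as well, and those of Col15a1 and Col6a1 hold none of these motifs. Over the 38 windows of the 35 collagen genes in the table, 5 held a TATA box, 13 a CCAAT box and 22 a GC box, against 12.4%, 33.8% and 32.7% of all 32851 windows. The Gli motif TGGGTGGTC, searched on both strands, was in none of the 38 windows and in 0.225% of all windows, which says only that these letters are not in these windows.

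Among the network collagens, Col10a1 changed most. It encodes the chain of type X collagen, best known from the hypertrophic cartilage of growth plates. Its log2 expression was 10.24, 9.94 and 10.02 in 4OHT wells, against 11.69, 11.82 and 11.73 in vehicle wells. Every 4OHT well lay at least 1.45 below every vehicle well, a gap wider than the spread within either group (0.29 in 4OHT wells and 0.13 in vehicle wells). Expression fell to 31.2% of the vehicle level, with a 95% interval of 27.2 to 35.8% (log2 fold change -1.68, SE 0.0836, adjusted p = 0.000188 by limma), and the fall ranked 2 among the 22180 genes. Genes of cartilage were lower beside it. Acan, which encodes the cartilage proteoglycan aggrecan, showed a log2 fold change of -1.003 with an adjusted p of 0.000188, Chad, which encodes the collagen-binding protein chondroadherin, of -1.11 with an adjusted p of 0.000822, and Sox9, the cartilage transcription factor gene, of -0.47 with an adjusted p of 0.00154. These were the 3 of 8 cartilage markers called lower, where 6.62% of all genes were, and none was called higher. 7 of the 8 were brighter than the receptor genes' 95th percentile. The summed level of the 8 markers on the log2 scale ran from 12.44 to 12.61 in 4OHT wells, against 13.32 to 13.35 in vehicle wells, and their part in the Col10a1 result was not tested. Col2a1, the fibrillar chain gene of hyaline cartilage, went the other way by value and was not called. It measured 10.84, 10.77 and 10.80 in 4OHT wells, against 10.65, 10.66 and 10.73 in vehicle wells (log2 fold change 0.12, SE 0.0457, adjusted p = 0.144), without overlap of the groups.

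Type VIII collagen, a short-chain collagen of vessel walls and of the corneal Descemet membrane, is built from the products of Col8a1 and Col8a2, and both genes fell. Col8a2 measured 7.09, 7.11 and 7.29 in 4OHT wells, against 8.03, 8.13 and 7.79 in vehicle wells. It fell to 56.7% of the vehicle level, with a 95% interval of 48.1 to 66.9% (log2 fold change -0.82, SE 0.0996, adjusted p = 0.00375). Col8a1 measured 13.14, 13.14 and 13.16 in 4OHT wells, against 13.45, 13.46 and 13.44 in vehicle wells. Its arrays within a group spanned about 0.02, and the fall to 81.0% of the vehicle level, with a 95% interval of 75.9 to 86.4%, was small but well outside that spread (log2 fold change -0.30, SE 0.0392, adjusted p = 0.00467).

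Type IV collagen, the sheet-forming collagen of basement membranes, is made from 6 genes that lie in 3 pairs. Col4a1 and Col4a2 encode the chains of the most widespread network, and both fell by nearly the same amount. Col4a1 measured 11.42, 11.43 and 11.42 in 4OHT wells, against 11.71, 11.73 and 11.70 in vehicle wells (log2 fold change -0.29, SE 0.0393, adjusted p = 0.00573). Col4a2 measured 11.22, 11.29 and 11.24 in 4OHT wells, against 11.56, 11.57 and 11.46 in vehicle wells (log2 fold change -0.28, SE 0.0499, adjusted p = 0.0160), and no 4OHT well of either gene reached the lowest vehicle well. Col4a2 missed the threshold when 4OHT replicate 1 was left out (adjusted p = 0.0613), and likewise vehicle replicate 1 (0.0597) or vehicle replicate 2 (0.0664). In the RefSeq promoter table of GRCm38.p6 the starts of Col4a1 and Col4a2 lie 21 bases apart on opposite strands of chromosome 8, and those of Col4a5 and Col4a6 lie 1343 bases apart on opposite strands of chromosome X.

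The chains of Col4a3 and Col4a4, which with that of Col4a5 form the network of the glomerulus and the alveolus, had values in the other direction. Col4a4 measured 7.44, 7.43 and 7.53 in 4OHT wells, against 7.23, 7.12 and 7.29 in vehicle wells. It rose to 120% of the vehicle level, with a 95% interval of 108 to 132% (log2 fold change 0.26, SE 0.0594, adjusted p = 0.0371) and was the only collagen gene called higher. The call was lost when any array other than vehicle replicate 3 was left out (adjusted p from 0.0915 to 0.0940 without 1 of the 4OHT arrays, 0.0908 without vehicle replicate 1 and 0.103 without vehicle replicate 2) and when quantile normalization was applied again (0.0720). Col4a3 showed a log2 fold change of 0.16 (adjusted p = 0.304, 95% interval -0.05 to 0.36), and its groups overlapped. Col4a6, whose product joins that of Col4a5 in smooth muscle basement membranes, measured 8.82, 8.82 and 8.82 in 4OHT wells, against 9.12, 9.16 and 9.20 in vehicle wells. It fell to 79.0% of the vehicle level, with a 95% interval of 73.7 to 84.7% (log2 fold change -0.34, SE 0.0424, adjusted p = 0.00418), and its 4OHT wells agreed within 0.01. Col4a5 showed a log2 fold change of -0.17 and was not called (adjusted p = 0.0719, 95% interval -0.28 to -0.05), although its groups did not overlap.

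Most smooth muscle and pericyte markers were also lower in 4OHT wells. Of these 8 markers 6 fell, among them Rgs5 (log2 fold change -1.19 with an adjusted p of 0.000346) and Myh11 (log2 fold change -0.54 with an adjusted p of 0.000822). None was called higher. Acta2 (log2 fold change -0.14, adjusted p = 0.0774) and Des (0.09, adjusted p = 0.258) were not called, and Des was higher by value without overlap of the groups. The summed log2 level of the 8 markers ran from 15.37 to 15.43 in 4OHT wells, against 15.68 to 15.69 in vehicle wells. Of 6 endothelial markers 3 fell (Cdh5, Emcn and Pecam1) and 2 rose (Kdr and Tek), with sums of 9.44 to 9.45 in 4OHT wells, against 9.69 to 9.81 in vehicle wells. All 5 measured genes of proliferation fell, with sums of 11.13 to 11.30 in 4OHT wells, against 12.53 to 12.56 in vehicle wells. Of 8 epithelial markers 1 fell, of 7 macrophage and leukocyte markers 1 (Cd68) rose, and of 4 mesothelial markers 2 fell and 1 rose. Among all genes 6.62% were called lower and 5.38% higher. A single call in a list of 8 or 7 markers cannot be told apart from those shares. No gene is at 0 on the RMA scale. No brighter than the receptor genes' 95th percentile were 4 of the 8 epithelial markers, 3 of the 6 endothelial ones (Emcn, Tek and Vwf) and 4 of the 7 macrophage and leukocyte ones. The part of these cells and of growth in the collagen results was not tested.

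Type VI collagen, the beaded filament of the pericellular matrix, is a trimer of the chains of Col6a1, Col6a2 and a long partner chain, most often that of Col6a3. Col6a2 measured 10.71, 10.63 and 10.67 in 4OHT wells, against 11.14, 11.20 and 11.14 in vehicle wells. It fell to 71.2% of the vehicle level, with a 95% interval of 66.0 to 76.7% (log2 fold change -0.49, SE 0.0456, adjusted p = 0.00133), with a gap of 0.43 between the groups. Col6a1 measured 11.57, 11.51 and 11.46 in 4OHT wells, against 11.85, 11.88 and 11.92 in vehicle wells and fell to 77.6% of the vehicle level, with a 95% interval of 71.5 to 84.1% (log2 fold change -0.37, SE 0.0488, adjusted p = 0.00522). A dimmer probe set of Col6a1 measured 9.39, 9.37 and 9.38 in 4OHT wells, against 9.93, 9.93 and 9.83 in vehicle wells, and gave a larger fall (log2 fold change -0.51, adjusted p = 0.00132 in a fit of all probe sets with 1 symbol).

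Col6a3 measured 9.69, 9.62 and 9.34 in 4OHT wells, against 9.99, 9.93 and 9.86 in vehicle wells. 4OHT replicate 3 was the low array, and the gene just missed the threshold (log2 fold change -0.38, SE 0.0960, adjusted p = 0.0505). Without that array the log2 fold change was -0.27 and the call was made (adjusted p = 0.0484), as it was with genes no brighter than the median gene left out (0.0125), and in 6 of 15 alternatives in all. The alternative partner chains Col6a4, Col6a5 and Col6a6 showed log2 fold changes of -0.24, -0.09 and -0.06, and none was called (adjusted p = 0.0688, 0.567 and 0.644).

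**Figure D2:**
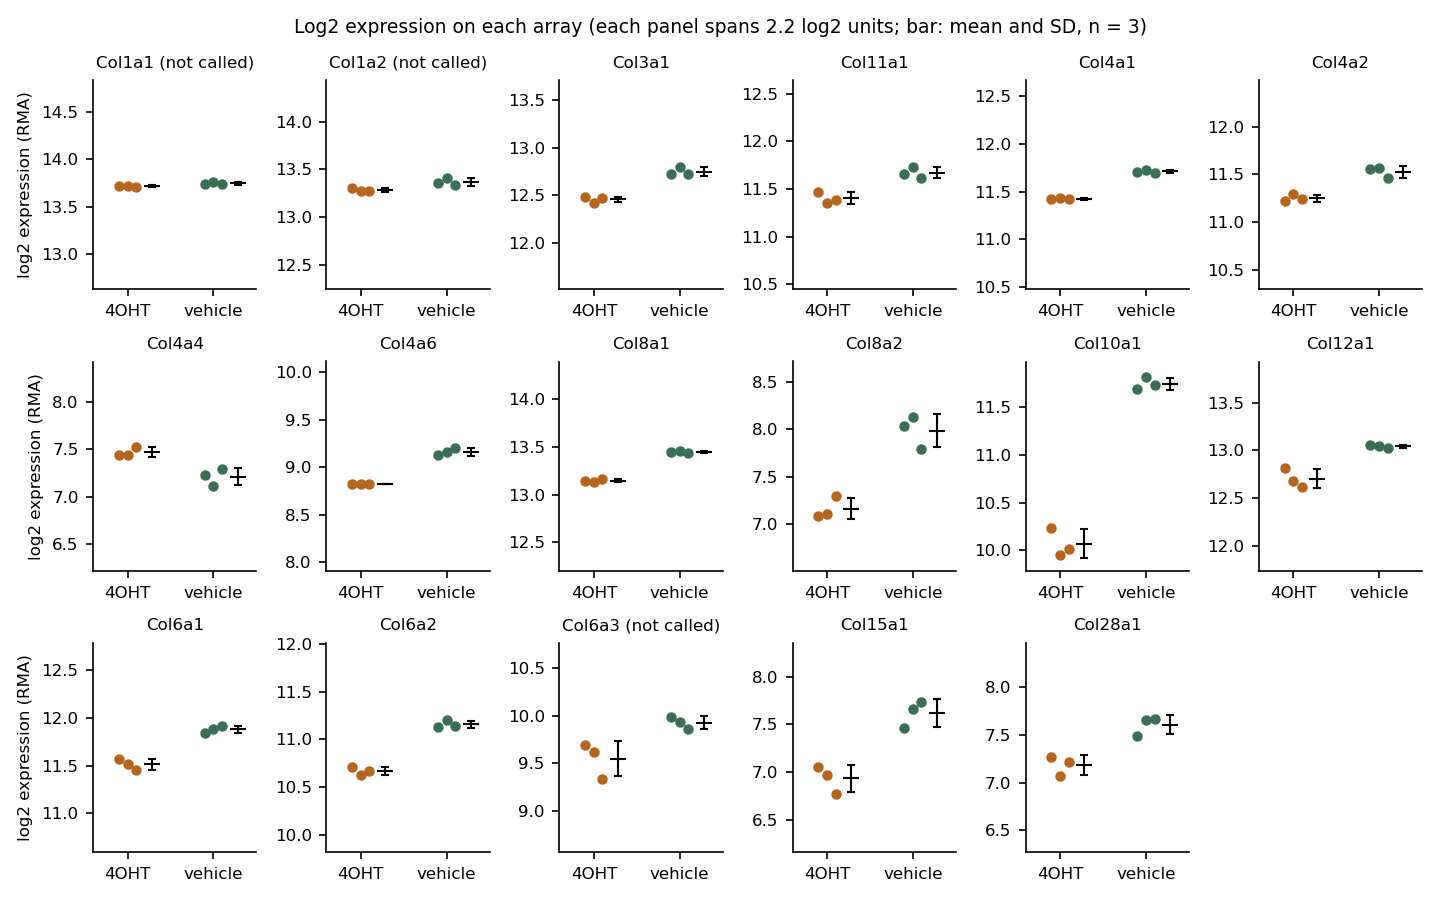
Log2 expression on each array for the 14 called collagen genes and for Col1a1, Col1a2 and Col6a3, with 4OHT wells on the left and vehicle wells on the right of each panel; black bars give the mean and SD (n = 3), and every panel spans the same height. The Col10a1 groups are farthest apart (10.07 and 11.75 on average), the Col1a1 groups nearly coincide (13.71 and 13.74), and Col4a4 is the panel in which 4OHT wells are higher.

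Fibrillar collagens, the bulk of the interstitial matrix, were mostly not called, and their main chains showed small differences. Col1a1, which encodes the major chain of type I collagen, measured 13.72, 13.72 and 13.70 in 4OHT wells, against 13.73, 13.76 and 13.74 in vehicle wells. The groups did not overlap, yet the difference was a log2 fold change of -0.03 (adjusted p = 0.688, 95% interval -0.12 to 0.06). Its partner Col1a2 measured 13.31, 13.28 and 13.27 in 4OHT wells, against 13.36, 13.41 and 13.33 in vehicle wells (log2 fold change -0.08, adjusted p = 0.285, 95% interval -0.19 to 0.02). These intervals leave room for a fall of Col1a1 to 91.8% and of Col1a2 to 87.9% of the vehicle level, as far as variation among wells goes. Col1a1 was brighter than 99.8% of all genes and Col1a2 than 99.4%. Whether differences are compressed at such levels was not tested. A dimmer Col1a2 probe set gave a log2 fold change of -0.01.

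Col3a1, which encodes the homotrimeric type III collagen that mixes with type I in fibrils, did fall. It measured 12.48, 12.43 and 12.47 in 4OHT wells, against 12.73, 12.80 and 12.73 in vehicle wells and fell to 81.7% of the vehicle level, with a 95% interval of 75.8 to 88.0% (log2 fold change -0.29, SE 0.0451, adjusted p = 0.00936). Col11a1, whose chain sits in the core of fibrils and sets their width, measured 11.47, 11.36 and 11.39 in 4OHT wells, against 11.66, 11.73 and 11.62 in vehicle wells (log2 fold change -0.26, SE 0.0534, adjusted p = 0.0241). This call was lost without 4OHT replicate 2 (adjusted p = 0.0937), 4OHT replicate 3 (0.0640), vehicle replicate 1 (0.0696) or vehicle replicate 2 (0.0850).

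The type V chains start and limit fibril growth. Col5a1 measured 11.84, 11.83 and 11.81 in 4OHT wells, against 11.97, 12.03 and 11.96 in vehicle wells, without overlap, and was not called (log2 fold change -0.16, SE 0.0428, adjusted p = 0.0592). A dimmer Col5a1 probe set gave -0.13. Col5a2 and Col5a3 showed log2 fold changes of -0.04 and 0.03 with overlapping groups. Col27a1 (-0.24, adjusted p = 0.0658), Col24a1 (-0.16, adjusted p = 0.184) and Col11a2 (-0.02, adjusted p = 0.896) complete the class, and none of these was called. Col27a1 was called without vehicle replicate 3 (adjusted p = 0.0341).

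Of the FACIT genes only Col12a1 was called. Its product lies on the surface of type I fibrils in dense connective tissue. It measured 12.81, 12.68 and 12.61 in 4OHT wells, against 13.06, 13.05 and 13.03 in vehicle wells, with vehicle wells within 0.03 of each other and 4OHT wells spread over 0.20. It fell to 78.9% of the vehicle level, with a 95% interval of 71.5 to 87.1% (log2 fold change -0.34, SE 0.0599, adjusted p = 0.0146), and this no longer passed without 4OHT replicate 2 (adjusted p = 0.0622), without vehicle replicate 1 (0.0521) or without vehicle replicate 2 (0.0578). Col14a1, which encodes the related fibril-surface chain of type XIV, showed a log2 fold change of -0.03 (95% interval -0.13 to 0.07) with overlapping groups. The other 7 FACIT genes (Col9a1, Col9a2, Col9a3, Col16a1, Col19a1, Col20a1 and Col22a1) had log2 fold changes between -0.11 and 0.13, and their groups overlapped.

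Col15a1 and Col18a1 encode the multiplexins, which bind basement membranes to the matrix beneath and carry endostatin-type fragments at their ends. Col15a1 measured 7.05, 6.97 and 6.77 in 4OHT wells, against 7.46, 7.66 and 7.74 in vehicle wells. It fell to 62.1% of the vehicle level, with a 95% interval of 52.7 to 73.2% (log2 fold change -0.69, SE 0.0994, adjusted p = 0.00713), and the groups lay 0.40 apart. Col18a1 showed a log2 fold change of -0.13 (adjusted p = 0.173, 95% interval -0.25 to -0.01). Col28a1, a von Willebrand factor A domain collagen described mainly in nerve, measured 7.27, 7.07 and 7.22 in 4OHT wells, against 7.49, 7.66 and 7.67 in vehicle wells (log2 fold change -0.42, SE 0.0758, adjusted p = 0.0160). Leaving out 4OHT replicate 2 (adjusted p = 0.0524) ended that call, as did leaving out vehicle replicate 2 (0.0634) or 3 (0.0532). Col7a1, the anchoring fibril chain gene of skin, and Col26a1 showed log2 fold changes of 0.05 and 0.08 with overlapping groups. The transmembrane genes Col13a1, Col17a1, Col23a1 and Col25a1 lay between -0.07 and 0.04 with adjusted p-values of at least 0.384.

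A missed threshold does not show equal expression. For 29 of the 30 genes not called the 95% interval lay within a 1.5-fold change either way, and the exception was Col6a3, whose interval reached a log2 fold change of -0.61. Only 3 of the 13 called falls exceeded 1.5-fold, so some of these intervals hold falls as large as called ones. That of Col27a1 ran from -0.40 to -0.08. In the trial on simulated data, limma called 9 of 50 genes changed 1.2-fold and 33 of 50 changed 1.5-fold. Of 29 collagen genes brighter than the median gene 11 were lower, where 10.9% of all genes that bright were, and of the 15 dimmer ones 2 were lower, where 2.33% were. Col9a1, Col19a1, Col6a5 and Col25a1 were no brighter than the 95th percentile of 1394 olfactory and vomeronasal receptor genes, and none of these was called.

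**Figure D3:**
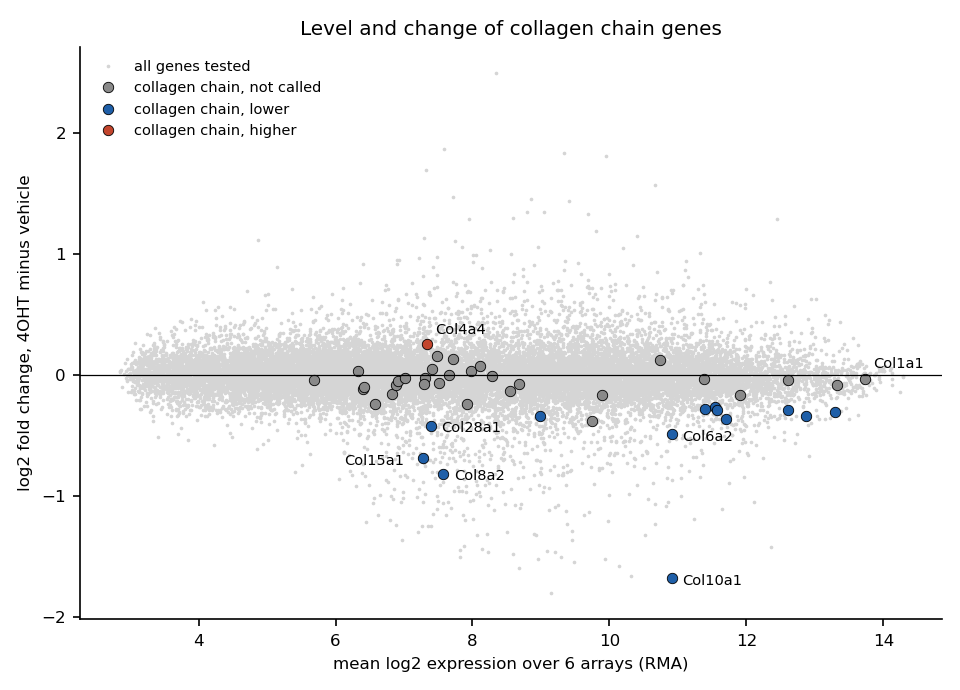
Log2 fold change (4OHT minus vehicle) against mean log2 expression over the 6 arrays for all 22180 genes tested (light grey) and the 44 collagen chain genes (outlined: blue called lower, red called higher, dark grey not called). Called collagen genes appear from a mean of 7.28 (Col15a1) to 13.30 (Col8a1), and the brightest, Col1a1 at 13.73, lies near 0.

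Chains that share a trimer were compared within arrays, as the difference between their log2 values in 4OHT wells minus that in vehicle wells. With 3 arrays against 3 an exact two-sided permutation test cannot give a p below 0.1, and over the 11 pairs none passed after Benjamini-Hochberg adjustment (smallest adjusted p = 0.220). The 95% intervals come instead from a t distribution and are not adjusted for the number of pairs. The widest difference was in type VIII, where Col8a1 minus Col8a2 differed by 0.51 (95% interval 0.21 to 0.82, exact permutation p = 0.1), the Col8a2 value being the lower. Mean levels were 13.30 for Col8a1 and 7.58 for Col8a2, and whether fold changes compare across such levels was not tested. Col4a5 minus Col4a6 differed by 0.17 (95% interval 0.07 to 0.28, exact permutation p = 0.1). Col4a1 minus Col4a2 differed by -0.01 (95% interval -0.10 to 0.08, exact permutation p = 0.800), which bounds any inequality of that pair at about 0.10 on the log2 scale. In type VI, Col6a2 minus Col6a1 differed by -0.12 (95% interval -0.24 to -0.01, exact permutation p = 0.1), and by -0.05 when the probe sets of Col6a1 were averaged. Col1a1 minus Col1a2 differed by 0.05 (95% interval 0.00120 to 0.10, exact permutation p = 0.1), and by 0.02 with the probe sets of Col1a2 averaged. Col5a1 minus Col5a2 differed by -0.12 (95% interval -0.21 to -0.03, exact permutation p = 0.1). The groups overlapped for the other pairs, whose differences were -0.10 (Col4a3 minus Col4a4), -0.11 (Col6a2 minus Col6a3), -0.11 (Col9a1 minus Col9a2), -0.03 (Col9a1 minus Col9a3) and -0.24 (Col11a1 minus Col11a2).

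**Figure D4:**
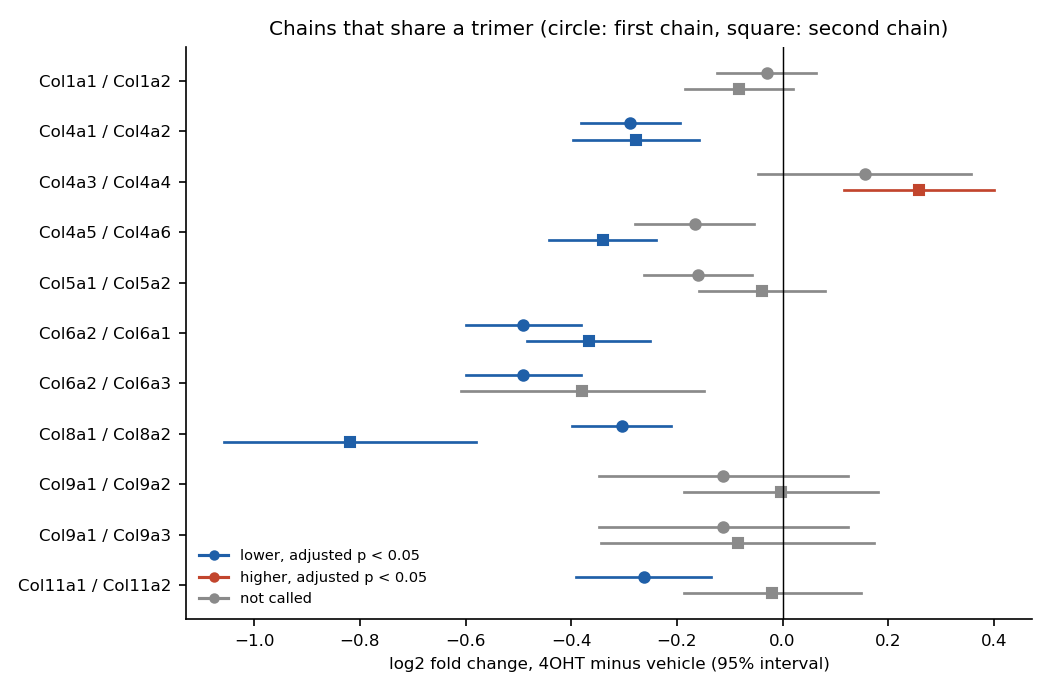
Log2 fold changes (4OHT minus vehicle) with 95% intervals for the 2 chain genes of each of 11 pairs that assemble in one trimer, with a circle for the first chain named and a square for the second (blue called lower, red called higher, grey not called). Col4a1 and Col4a2 lie together at -0.29 and -0.28, Col8a2 lies at -0.82 beside Col8a1 at -0.30, and Col4a3 and Col4a4 are the pair to the right of 0.

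Genes that fold, process, crosslink and take up collagen were examined beside the chains. Of 41 measured, 12 fell, 2 rose and 27 were not called, with a median log2 fold change of -0.10. Of these genes 29.3% were lower and 4.88% higher, where 6.62% and 5.38% of all genes were. Adamts2, Loxl2, Plod3, Fkbp10 and Itga10 were listed too but had no probe set with that symbol alone, so they were not measured. Adamts3 and Adamts14, which encode proteases that cut the N-propeptides off fibrillar procollagens, were both lower. Adamts3 measured 7.50, 7.61 and 7.51 in 4OHT wells, against 8.14, 8.09 and 8.35 in vehicle wells. Adamts14 measured 8.14, 8.31 and 8.30 in 4OHT wells, against 8.67, 8.71 and 8.77 in vehicle wells. They fell by 0.65 and 0.47 on the log2 scale (adjusted p = 0.00338 and 0.00507 by limma), and 4 of 7 procollagen processing genes were lower. With the probe sets of Adamts14 averaged its log2 fold change was -0.26 (adjusted p = 0.0204).

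Loxl3, which encodes a lysyl oxidase that crosslinks collagen and elastin, fell by 0.56 (adjusted p = 0.00233). Of the other 3 crosslinking genes measured, Loxl4 rose (log2 fold change 0.20, adjusted p = 0.0394), and Lox and Loxl1 were not called (log2 fold changes 0.04 and -0.15). Loxl4, Lox and Loxl1 were named after their values were seen. Itga11 and Itga1, which encode alpha subunits of collagen-binding integrins, fell by 0.49 and 0.42 (adjusted p = 0.00151 and 0.00190). P4ha3, a prolyl hydroxylase subunit gene, fell by 0.35 (adjusted p = 0.00436), 1 of 4 lower among 17 genes of folding and hydroxylation. Creb3l1, a transcription factor of the secretory pathway that acts on type I collagen genes, fell by 0.25 (adjusted p = 0.0123), a call lost without vehicle replicate 2 (0.0550) and with the replicate number as a block (0.0501). Ctsk, which encodes the collagen-degrading protease cathepsin K, went the other way. It measured 10.79, 10.83 and 10.69 in 4OHT wells, against 10.25, 10.22 and 10.30 in vehicle wells and rose 1.43-fold (adjusted p = 0.00224).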

How the data were processed

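Total RNA (100 ng per labelling reaction, per the labels' protocols) was amplified, biotinylated and hybridised to single-colour Affymetrix arrays. The authors deposited a table of log2 expression for each probe set on the 6 arrays. Per the submitters' processing notes, which give no versions, it came from oligo with RMA, and limma is named too. RMA subtracts background, quantile normalizes the arrays and summarizes probes, so a shift of all genes one way would be removed. No genome build for the values is given in the sources used here.

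Of 41345 probe sets, 23521 had 1 annotated symbol, 1814 several and 16010 none. The brightest probe set stood for each of 22180 genes. The 44 collagen genes had 47 such probe sets, and all 44 symbols matched RefSeq. 4OHT and vehicle wells were set against each other by limma 3.58.1 in R 4.3.3 (lmFit and eBayes, two-sided, Benjamini-Hochberg over all genes, threshold 0.05), with no filter on dim genes, after a trial on simulated data. Summed marker levels are log2 of the summed linear values. Alternatives covered scaling, filters on dim genes (by the median gene and by receptor genes), probe set choice, variance model, a replicate block, the threshold and leaving out each array. All collagen genes are named, and the 8 biosynthesis genes of smallest p. The members, classes and lists were chosen with earlier results of these data known.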

Additional observations from a re-analysis of the deposited data

How the results depend on the processing

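Of the 13 collagen chain genes called lower, 9 were called lower in every alternative in which they were tested, namely Col10a1, Col6a1, Col6a2, Col8a1, Col8a2, Col4a1, Col4a6, Col3a1 and Col15a1, and these were also the 9 called at an adjusted p under 0.01. Col4a2, Col11a1, Col12a1 and Col28a1 were lost in some, and 6 further genes were called lower in some (Col1a2, Col5a1, Col27a1, Col4a5, Col6a3 and Col6a4). Col2a1 was called higher with only genes above the median gene (0.0410) and with eBayes trended and robust (0.0402). The number lower was 9 to 13 when any array was left out, where 3.31% to 6.04% of all genes were lower. It was 11 to 18 otherwise (3.69% to 19.2% of all genes), except 9 at the stricter threshold (2.77%). The filters on dim genes also changed the number tested. With only genes above the median gene 15 of 29 were lower (19.2% of all genes tested), and with the filter by receptor genes 18 of 40 (14.4%). The number higher was 1 with arrays centred on their medians, 2 with eBayes trended and robust, 0 with quantile normalization applied again, with all probe sets in the fit, at the stricter threshold and with the replicate number as a block, and 0 to 1 without an array. The count over all genes (2662) was 1568 with the block, 4123 trended and robust, 1389 with all probe sets in the fit, 1010 at the stricter threshold and 1220 to 2326 without an array. The count of collagen biosynthesis genes (14) was 7, 24, 8 and 7 under the same settings, and 7 to 13 without an array. The class medians moved with the setting, in an analysis added after seeing the data. The transmembrane median turned to 0.01 with arrays centred on their medians and to 0.04 without vehicle replicate 1. Under the filters on dim genes a class can hold fewer genes, so those medians are not of the same members. The titles share replicate numbers, and the labels do not say what a number marks. Deviations of same-numbered arrays correlated between -0.02 and 0.06, against -0.08 to 0.03 for the other pairs across groups. With 3 arrays per group this cannot show whether same-numbered wells shared a batch or day. With the block 12 collagen genes were lower, where 4.15% of all genes were. Col11a1 (adjusted p = 0.0731), Col28a1 (0.0574) and Col4a4 (0.0544) were lost there while Col6a3 was gained (0.0418). In the fit of all probe sets Col4a2 (0.05001), Col11a1 (0.0669) and Col4a4 (0.0894) were lost. The causes were not tested.

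Signs turned only for genes not called. With arrays centred on their medians the log2 fold change was 0.0015 for Col11a2, 0.018 for Col9a2 and 0.021 for Col23a1, with array weights it was 0.014 for Col9a2, and with quantile normalization applied again it was -0.010 for Col25a1. Leaving out 1 array gave ranges of -0.072 to 0.054 for Col11a2, -0.043 to 0.072 for Col9a2, -0.166 to 0.036 for Col9a3, -0.121 to 0.028 for Col19a1, -0.134 to 0.0039 for Col6a6, -0.058 to 0.042 for Col17a1, -0.089 to 0.087 for Col23a1 and -0.011 to 0.099 for Col7a1. For trimer pairs it gave -0.027 to 0.017 for Col4a1 minus Col4a2, -0.247 to 0.026 for Col9a1 minus Col9a2 and -0.211 to 0.107 for Col9a1 minus Col9a3. RMA compresses the fold changes of dim probe sets, which limits what can be said of the 15 collagen genes at or below the median gene.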
